A study of Homo sapiens with 28 samples.

Results

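Distal regions that carried H3K4me1 and H3K27ac in the same cell cycle phase were taken from human embryonic stem cells. A region was built from H3K4me1 peaks that overlapped an H3K27ac peak of their own phase by at least 1 bp and lay more than 2.5 kb from every H3K4me3 peak of any phase. Merging the peaks of the 4 phases gave 2632 regions, of 16001 merged H3K4me1 regions in all and 13385 that were distal by the same limit. The regions were thus chosen by the presence of both marks, and that presence is a description of the choice, not a result.

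The cells carried Fucci, a pair of fluorescent reporters that are made and degraded at set points of the cell cycle, and grew without serum or feeder cells in a defined medium with Heregulin b1, Activin a, Longr3 IGF-1 and FGF2. Sorting by reporter gave a fraction for early G1 (labelled DN), for late G1 (KO2), for S phase (AzL) and for G2/M (AzH). All fractions were of the same kind of cell and no treatment set them apart. Each of 4 histone marks was profiled by ChIP-seq in each fraction with 1 library, so no test between phases was possible. Intervals given below are exact Clopper-Pearson 95% intervals for shares and exact binomial order-statistic intervals for medians, treat peaks as independent, and take in counting error alone. Read depth of the ChIP libraries is unknown here.

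Enhancers are stretches of DNA, often far from the genes they act on, where transcription factors gather to raise transcription. Their flanking nucleosomes commonly carry H3K4me1, placed largely by the MLL3 and MLL4 methyltransferases. H3K27ac, placed by the acetyltransferases p300 and CBP, is added at enhancers that are active, while H3K4me3 is characteristic of promoters and H3K27me3 of chromatin silenced by Polycomb. In embryonic stem cells, distal sites with H3K4me1 alone are often called primed, and those with H3K27ac as well are called active. The peak lists used here hold positions and heights without gene names, and no gene was assigned to a region.

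The number of regions in each phase followed the length of the lists only in part. The H3K4me1 lists held 1878, 4017, 6280 and 6156 peaks, taking early before late G1 and then S before G2/M, the order of every set of 4 values below, and 456, 957, 753 and 982 of these met the rule. They made up 29.3%, 28.4%, 14.7% and 18.7% of the distal H3K4me1 peaks, with intervals of 27.1 to 31.7, 26.9 to 29.95, 13.7 to 15.7 and 17.7 to 19.8. The H3K27ac lists held 30168, 32521, 10268 and 19525 peaks, so the phases with high shares were also those with long H3K27ac lists. When every phase was given the same number of best-scored peaks of each mark, the shares became 16.3%, 19.5%, 20.5% and 20.1%, and early G1 moved from the highest to the lowest. The order of the phases thus changed when list length was held equal.

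The distance limit cut through few peaks. Of 3820 H3K4me1 peaks with H3K27ac of their phase, 213 overlapped H3K4me3, 459 lay within the limit without overlap and 3148 were kept. The nearest kept peak lay 2501 bp from H3K4me3 and the farthest excluded peak 2451 bp. Within 500 bp of the limit there were 61 kept and 64 excluded peaks.

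Most regions carried both marks in a single phase, and H3K27ac was listed in more phases than H3K4me1. Both marks met in 1 phase at 2259 regions (85.8%), in 2 phases at 283, in 3 at 70 and in all 4 at 20. Taken alone, H3K4me1 was listed in 1 phase at 1937 regions (73.6%) and in all 4 at 31 (1.18%). Among all 13385 distal H3K4me1 regions, 88.8% were listed for H3K4me1 in 1 phase and 0.291% in all 4. A region listed for H3K4me1 in more phases had more chances to meet the rule, so this difference is partly built in. H3K27ac was listed in 1, 2, 3 and 4 phases at 703, 630, 518 and 781 regions, so that 29.7% (27.9 to 31.5) held it in all 4. Among the 28457 merged distal H3K27ac regions 11.1% were listed in all 4, but the rule could pick a region in any of 4 phases, which favours regions listed often. The same holds for the 2406 of these that overlapped a region with both marks, of which 39.4% were listed in all 4 phases, against 8.62% of the 24862 without H3K4me1. The former were also wider, with medians of 475 and 200 bp. At 1708 regions (64.9%) H3K27ac was listed in more phases than H3K4me1, at 699 in as many and at 225 in fewer. Of the 781 regions with H3K27ac in every phase, 560 (71.7%) had H3K4me1 in a single phase.

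**Figure D1:**
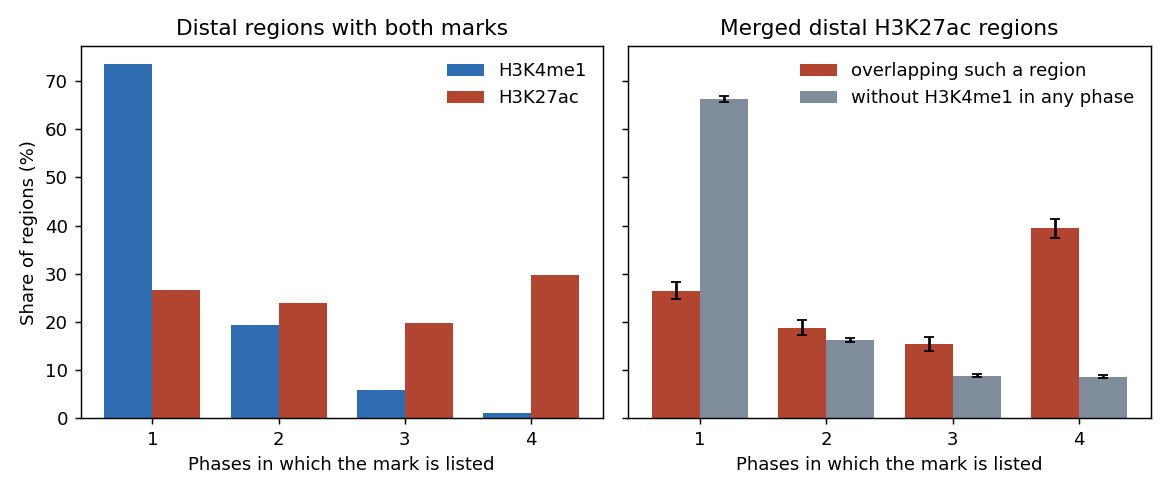
Share of regions (vertical axis, %) by the number of phases in which a mark is listed. Left, the 2632 regions, with H3K4me1 mostly in 1 phase (73.6%) and H3K27ac spread from 1 to 4; right, merged distal H3K27ac regions that overlap one of them or have no H3K4me1, with 95% intervals.

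Late G1 held H3K27ac at the largest share of the regions. The mark was listed at 52.7% of them in early and 83.6% in late G1, and at 50.1% in S and 66.0% in G2/M. Every region has both marks in at least 1 phase by choice, which sets part of these shares. Both marks met at 17.1%, 35.9%, 28.3% and 37.0% of the regions. The H3K27ac list of early G1 was the longest after that of late G1, in full and for distal peaks alone (14506, 20052, 6796 and 12109). The commonest pattern after all 4 phases was late G1 alone (390 regions), followed by late G1 with G2/M (265) and late G1, S and G2/M (238). H3K4me1 was listed at 18.6%, 37.2%, 36.6% and 42.4% of the regions, not far above the shares with both marks, which the choice sets. Its commonest patterns were G2/M alone (590), late G1 alone (548), S alone (428) and early G1 alone (371). The pair of phases that most often shared a region with both marks was S and G2/M, at 202 regions. Early G1 shared 41 with late G1, 42 with S and 37 with G2/M. It also had the fewest regions with both marks, 451 against 945, 744 and 975.

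Regions with both marks in a single phase differed in how H3K27ac was listed elsewhere. Of the 716 regions with both marks in late G1 only, 390 (54.5%) had H3K27ac in no other phase and 79 (11.0%) in all 4. Of the 464 regions with both marks in S only, 45 (9.7%) had H3K27ac in no other phase and 249 (53.7%) in all 4. For early G1 only, 115 of 384 (29.9%) had H3K27ac nowhere else, and for G2/M only, 153 of 695 (22%). Distal H3K27ac peaks without H3K4me1 of their phase were also listed elsewhere more often for S than for late G1. Among late G1 peaks without it, 42.3%, 23.1% and 36.5% were listed in early G1, S and G2/M. The late G1 only regions had 25.8%, 21.5% and 32.4%. Among S peaks without it, 66.1%, 78.5% and 68.4% were listed in early G1, late G1 and G2/M. The S only regions had 62.3%, 85.1% and 70.0%. The units differ, since the peaks are whole H3K27ac peaks and the regions are merged H3K4me1 peaks. The regions were also chosen to lack both marks in every other phase, so their shares and those of the peaks are not like for like. The S list of H3K27ac was the shortest and the late G1 list the longest. The part of list length in the contrast between S and late G1 was not tested.

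Distal H3K27ac peaks with a qualifying H3K4me1 peak of their own phase, called region peaks here, were wider than those without H3K4me1 of that phase. The former numbered 438, 928, 742 and 954 and the latter 14068, 19124, 6054 and 11155. The latter include H3K27ac peaks that lie at the regions in a phase without H3K4me1, so the split is by H3K4me1 of the same phase, not by place. Median widths were 425, 325, 250 and 325 bp with H3K4me1 against 225, 200, 175 and 200 bp without, which are ratios of 1.89 (1.78 to 2.22), 1.62 (1.5 to 1.75), 1.43 (1.29 to 1.57) and 1.62 (1.5 to 1.75). In early G1 the middle part of the distribution, from the lower to the upper quartile, ran from 225 to 750 bp with H3K4me1 and from 125 to 375 bp without. A wider peak meets an H3K4me1 peak more easily, so this difference is partly built into the rule. In early G1, 1.23% of distal H3K27ac peaks of 75 to 100 bp had H3K4me1, and 10.7% of those of 825 bp or more.

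Region peaks of H3K27ac were also taller, but little of that was seen among peaks of like width. Height here is column 6 of the deposited lists, on the authors' own scale, and it is used within a list. Median heights were 30.8, 27.4, 16.8 and 20.7 with H3K4me1 and 24.6, 22.6, 14.6 and 17.6 without, ratios of 1.25 (1.2 to 1.33), 1.21 (1.18 to 1.24), 1.15 (1.11 to 1.21) and 1.18 (1.14 to 1.23). Within 8 classes of width, the ratios fell to 1.05, 1.02, 1.04 and 1.02. The tallest distal H3K27ac peak with H3K4me1 reached 99, 185, 63.4 and 105 in the 4 phases, and the tallest without it 102, 158, 56.9 and 80.0, so the ranges overlapped widely.

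**Figure D2:**
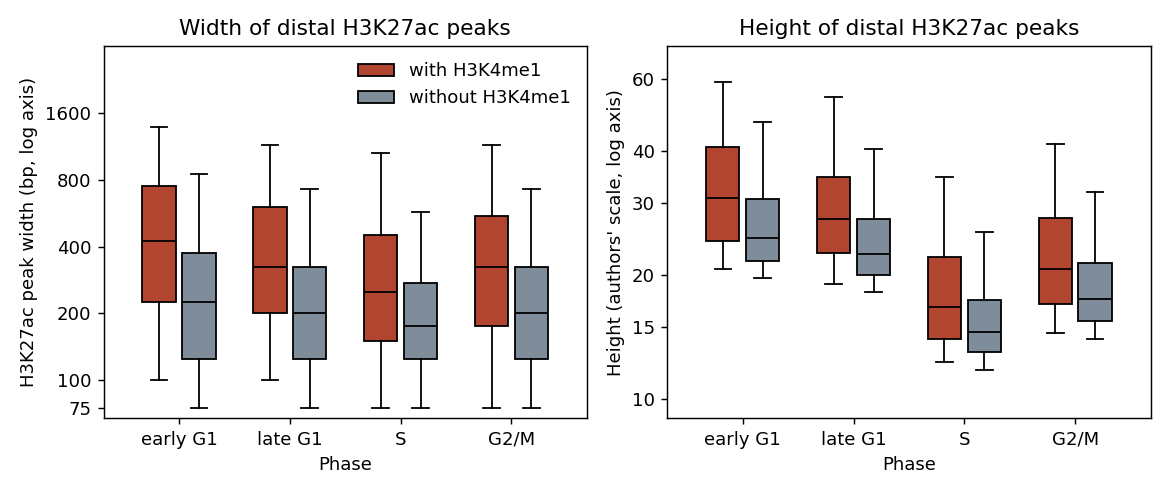
Width (left, bp) and column 6 height (right, authors' scale) of distal H3K27ac peaks with and without H3K4me1, both on log axes. Boxes span the quartiles with the median, and whiskers the 5th to 95th percentiles; medians of 425, 325, 250 and 325 bp with H3K4me1 stand above 225, 200, 175 and 200 bp without.

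The H3K4me1 peaks of the regions were slightly wider and taller than other distal H3K4me1 peaks. Their median width was 125, 125, 150 and 150 bp, against 100, 100, 125 and 125 bp for distal H3K4me1 peaks without H3K27ac of their phase. Median H3K4me1 heights were 22.5, 14.5, 16.1 and 14.8 with H3K27ac and 21.8, 13.8, 15.4 and 13.8 without, ratios of 1.03 to 1.07. The H3K4me1 peak lay wholly inside the H3K27ac peak in 70.2%, 67.8%, 50.9% and 59.2% of cases. It covered a median of 28.9%, 33.8%, 50% and 42.9% of the H3K27ac peak.

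Lists of phases that the rule had not used for a peak offered a separate measure of both marks. H3K4me1 peaks with H3K27ac were listed again in another phase more often than H3K4me1 peaks without it, in all 12 pairs of phases. Between S and G2/M the shares were 32.9% (29.6 to 36.4) against 13.5% (12.5 to 14.6) for S peaks in the G2/M list, and 32.0% (29.1 to 35.0) against 12.1% (11.2 to 13.1) in the other direction. Late G1 peaks were listed in S at 27.3% (24.5 to 30.2) against 9.45% (8.31 to 10.7). For early G1 peaks in late G1 the shares were 7.68% (5.4 to 10.5) and 5.64% (4.35 to 7.17), and these intervals overlapped, as did those for early G1 peaks in G2/M, at 9.43% (6.91 to 12.5) and 5.55% (4.27 to 7.07). Peaks without H3K27ac were also reweighted to the widths of those with it. They then gave 17.3% for S peaks in G2/M, 17.2% for G2/M peaks in S and 11.5% for late G1 peaks in S. Other differences were small at like widths. They were 0.668 percentage points for early G1 peaks in late G1 and 2.37 for early G1 peaks in G2/M. For G2/M peaks in late G1 the difference went from 9.32 to 5.13. The sign stayed the same in all 12 pairs.

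Before width was taken into account, region peaks of H3K27ac were listed again more often than distal H3K27ac peaks without H3K4me1 in late G1, S and G2/M, and at nearly the same share in early G1. Of S peaks, 89.6% (87.2 to 91.7) were listed in late G1, against 78.5% (77.5 to 79.6) of S peaks without H3K4me1. Of G2/M peaks, 80.9% (78.3 to 83.4) were listed in late G1 against 62.9% (62.0 to 63.8), and 58.5% (55.3 to 61.6) in S against 33.5% (32.6 to 34.4). The early G1 list held 42.8% (39.6 to 46.0) of the late G1 peaks against 42.3% (41.6 to 43.0), 65.5% (62.0 to 68.9) of the S peaks against 66.1% (64.9 to 67.3), and 56.2% (53.0 to 59.4) of the G2/M peaks against 55.2% (54.2 to 56.1).

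Peaks of like width gave another picture. At the widths of the region peaks, distal H3K27ac peaks without H3K4me1 were listed in early G1 at 59.3% for late G1 peaks, 76.3% for S peaks and 68.8% for G2/M peaks. The region peaks stood 16.5, 10.8 and 12.6 percentage points below these shares. For late G1 peaks in S the share at like widths was 40.2% against 41.4% of region peaks, and for G2/M peaks in S it was 49.7% against 58.5%. Early G1 region peaks were listed in late G1 at 75.8% against 73.2% at like widths. In G2/M the shares were 58.4% against 62.5% for early G1 peaks and 49.8% against 54.6% for late G1 peaks, lower for region peaks, and 78.8% against 78.4% for S peaks. The early G1 lists of both marks come from 1 library each, so a property of the library and one of the phase cannot be told apart.

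**Figure D3:**
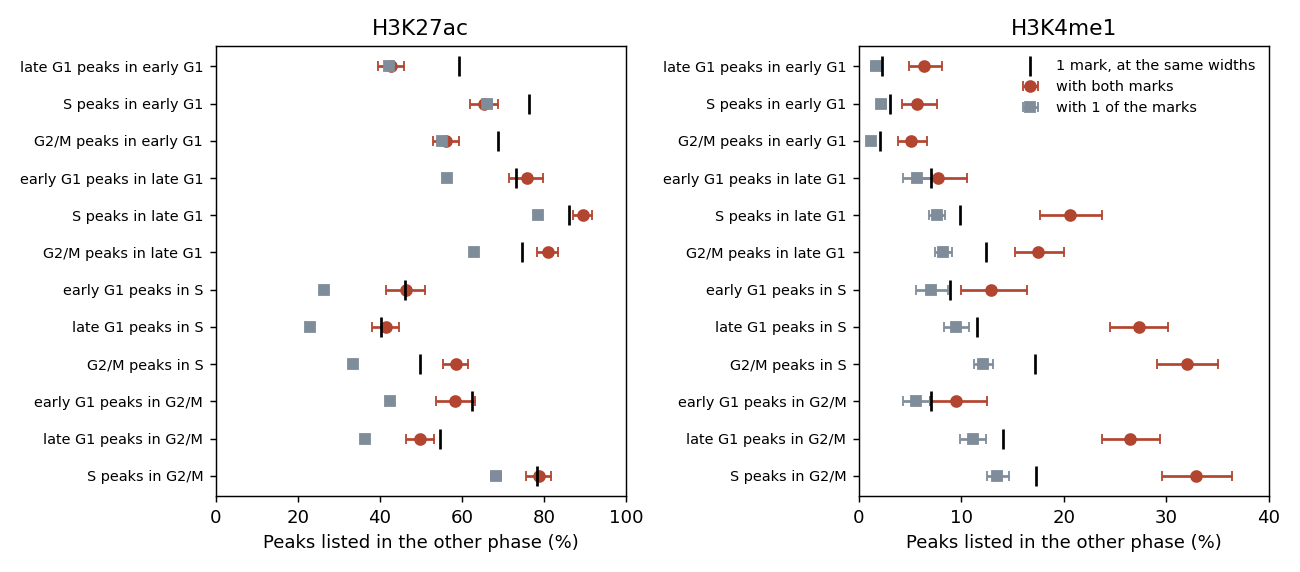
Share of distal peaks of a phase that are listed again for the same mark in another phase (horizontal axis, %), for H3K27ac (left) and H3K4me1 (right). Circles are peaks with both marks, squares peaks with 1 of them, bars 95% intervals, and black ticks the latter at the widths of the former; for H3K27ac in early G1 the circles lie left of the ticks.

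The 15 regions with the tallest H3K27ac rested on 14 separate H3K27ac peaks, with heights from 86.5 to 185. Positions are the deposited ones, taken to be hg19, and heights of different phases are set side by side as listed, since their scaling is unstated. Median heights of the whole H3K27ac lists were 25.79, 23.05, 14.97 and 17.99. The S and G2/M lists thus ran lower as a whole, which makes a tallest value there less likely. The tallest value fell in late G1 at 8 regions, in early G1 at 5 and in G2/M at 2. Over all 2492 regions with a height it fell in late G1 at 1510, in early G1 at 648, in G2/M at 286 and in S at 48, so late G1 was no more common among the 15. H3K27ac was listed in all 4 phases at 13 of the 15, although both marks met in a single phase at 8 of them. At 8 of the 15 the phase of the tallest H3K27ac was among those with both marks. Over those 2492 regions, the median of the tallest H3K27ac peak was 30.5, and 348 regions exceeded 50.

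The tallest region without H3K27me3 lay at chr16:14144951-14145250. Its H3K27ac heights were 43.5, 158, 48.1 and 55.2, with late G1 the highest as listed, and H3K4me1 was listed in S only (height 23.9). At chr5:79479951-79480025 the heights were 59.7, 121, 49.6 and 62.1 under an H3K27ac peak of 1775 to 1975 bp, with H3K4me1 again in S only. At chr1:214204101-214204575 the order of heights was another, with 29.3, 61.5, 59.1 and 105. H3K4me1 there was listed in early G1, S and G2/M at 24.5, 41.3 and 50.8, the last being the tallest H3K4me1 peak of G2/M at any region with a height. As listed, both marks thus had their largest height in G2/M, but heights of different lists have no known common scale.

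A pair of regions on chromosome 7, from 28331601 to 28331900 and from 28333326 to 28333425, lay under the same H3K27ac peak of 2050 to 2375 bp. Its heights were 57.8, 101, 38.6 and 44.7. H3K4me1 was listed at the first in late G1 and S and at the second in early G1 only. Early G1 was the tallest phase at chr12:31540701-31540775, with 99 in early G1, 83.0 in late G1 and no H3K27ac peak in S or G2/M. It was also the tallest at chr7:70358951-70359100 (92.6, 69.7, 27.1 and 39.1), chr2:63843051-63843250 (90.9, 35.6, 30.7 and 34.2) and chr13:111139876-111140050 (88.4, 41.8, 22.7 and 52.3). At the last 2 of these the only H3K4me1 peak was in S.

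**Figure D4:**
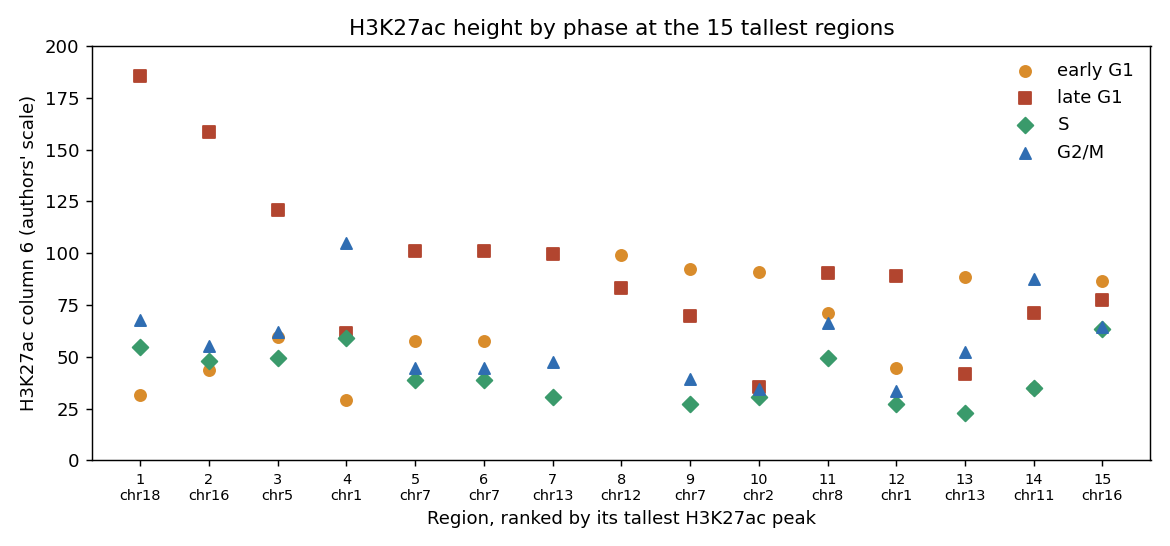
H3K27ac column 6 height (vertical axis, authors' scale) in each phase at the 15 regions with the tallest H3K27ac, ranked from left to right. Late G1 is the tallest phase at 8 of the 15, against 1510 of all 2492 regions with a height, and regions 5 and 6 share a single H3K27ac peak.

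The 20 regions with both marks in every phase spanned 225 to 1400 bp with a median of 612.5, against 150 bp over all regions, a difference that merging the peaks of more phases brings with it. None overlapped H3K27me3, which only 1.82% of all regions did. Their tallest H3K27ac heights, known for 19, ran from 31.7 to 86.5 and fell in early G1 at 12 and in late G1 at 7. The tallest of the 20 was chr16:71062401-71063125, with H3K27ac heights of 86.5, 77.4, 63.4 and 64.4 and H3K4me1 heights of 22.8, 15.3, 30.1 and 17.4. Next came chr20:32156676-32157050, with 38.4, 78.9, 19.9 and 26.9 for H3K27ac and 21.7, 19.9, 23.4 and 19.6 for H3K4me1.

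Chromosome 1 held 10 of these 20 regions, and 7 of them fell within 305 kb, from 144936626 to 145242000. That stretch held 38 regions in all. The 3 widest regions lay there too, at 144994176 to 144995775 (1600 bp), 145116076 to 145117500 (1425 bp) and 145112501 to 145113900 (1400 bp). At the widest, H3K4me1 was listed in every phase with heights of 56.3, 32.6, 26.1 and 26.2, while H3K27ac was listed in early and late G1 only, at 37.9 and 26.2. The regions from 145112501 and from 145113901 adjoin, so some of the 7 are neighbouring pieces. Another pair of the 20 lay at 120601301 to 120601850 and 120602251 to 120602875 of the same chromosome. The inputs were not analysed here, so whether input reads are also raised in that stretch or at this pair was not tested.

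Many regions lay close together, in part as neighbouring pieces. Of the 2632, 60 adjoined another without a gap, and joining pieces within 1 kb left 2190. The same count was not made for other distal regions. Joined across gaps of up to 12.5 kb, 1191 of them (45.3%) fell into 438 groups of 2 or more, and 27 groups held at least 5. The largest group had 18 regions over 31.1 kb at chromosome 1 from 145215376 to 145246500, and the next had 15 over 25.4 kb from 120578201 to 120603600. Away from chromosome 1, the largest group had 10 regions over 17.9 kb at chromosome 14 from 57352176 to 57370050, and both marks met there in early G1 at 4 regions, late G1 at 1, S at 4 and G2/M at 4. A group of 9 over 23.2 kb lay at chromosome 3 from 61668501 to 61691675.

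Some chromosomes held unlike shares of the regions and of distal H3K27ac regions. The former are merged H3K4me1 peaks, often in neighbouring pieces, and the latter merged H3K27ac peaks, so the counts differ in unit. Of the 320 regions on chromosome 1, 38 lay in the stretch of 305 kb described above. Chromosome 1 held 12.2% of the regions and 10.3% of distal H3K27ac regions, chromosome 7 8.51% and 6.2%, and chromosome 13 5.62% and 3.74%. Chromosomes 17, 18 and 19 held 1.06%, 1.29% and 0.532% of the regions against 2.27%, 2.53% and 1.26%. The median distance from a region to the nearest H3K4me3 peak was 45.0 kb (quartiles 15.3 and 96.4), and 627 regions (23.8%) lay more than 100 kb away. By phase, the medians for the H3K4me1 peaks were 27.5, 47.1, 43.3 and 52.2 kb. Distal H3K4me1 peaks without H3K27ac of their phase had medians of 41.0, 55.0, 38.8 and 57.4 kb, so those of the regions lay nearer to H3K4me3 in every phase but S. Distal H3K27ac peaks had medians of 28.0, 46.7, 44.4 and 52.9 kb with H3K4me1 and 42.1, 46.6, 47.5 and 46.8 kb without, and in G2/M those with H3K4me1 lay farther away.

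H3K27me3, a mark the rule did not use, overlapped 48 regions (1.82%), against 0.952% of all distal H3K27ac regions. The former are merged H3K4me1 peaks and the latter merged H3K27ac peaks, with median widths of 150 and 200 bp. Of the 48, 26 had it in 1 phase and 10 in all 4, and at 31 it was listed in a phase with both other marks. Among distal H3K27ac peaks of S, 0.809% (0.297 to 1.75) of those with H3K4me1 and 0.182% (0.0907 to 0.325) of those without it overlapped H3K27me3, and in G2/M the shares were 0.734% (0.296 to 1.51) and 0.197% (0.124 to 0.298). In late G1 they were 1.62% (0.907 to 2.65) and 0.669% (0.559 to 0.795), and in early G1 0.913% (0.249 to 2.32) and 0.618% (0.496 to 0.762). The intervals were apart in late G1 and overlapped in the other 3 phases. These shares rest on 4, 15, 6 and 7 region peaks. Region peaks were wider, which makes an overlap easier, and the shares were not computed at like widths. Set against other distal H3K4me1 peaks, the H3K4me1 peaks of the regions in S overlapped H3K27me3 at 0.797% (0.293 to 1.73) and 1.98% (1.59 to 2.44) respectively, with overlapping intervals, as in the other phases. The tallest of all regions, chr18:74679426-74679800, was among the 48. Its H3K27ac heights were 31.7, 185, 54.7 and 67.7, and H3K27me3 was listed in G2/M alone, at a height of 15.7. At chr13:112733101-112733475 H3K27me3 was listed in late G1, S and G2/M, the phases with both other marks, and no H3K27ac peak was listed in early G1. Its H3K27ac heights in the other phases were 99.5, 30.4 and 47.6.

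The 4C libraries, which count ligations between a viewpoint beside GATA6 or SOX17 and HindIII sites elsewhere, gave a readout from another assay. Only sites on chromosomes other than the viewpoint's were used, and those within 10 kb of a region were set against sites within 10 kb of distal H3K27ac regions without H3K4me1. The share of sites with any read was higher near the regions in all 8 libraries, by small amounts. For GATA6 it was 8.03% against 7.73% in early G1, 9.45% against 9.05% in late G1, 11.1% against 10.3% in S, and in G2/M 5.72% against 5.38%. For SOX17 it was 8.2% against 8.04%, 6.89% against 6.77%, 9.49% against 9.12% and 4.41% against 4.35%. The intervals were apart for GATA6 in S (lower limit 10.6 near the regions) and overlapped in the other 7 libraries. Over all sites on those chromosomes the shares were 7.28%, 8.26%, 9.18% and 5.17% for GATA6. For SOX17 they were 7.55%, 6.44%, 8.23% and 4.37%. Sites near distal H3K27ac regions without H3K4me1 thus also stood above all sites, except for SOX17 in G2/M, so a raised share was not particular to the regions. Libraries of a viewpoint share their sites, so they are not separate samples of sites.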

How the data were processed

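Peak lists of 16 ChIP libraries (4 marks in 4 phases) and a table of 8 4C libraries were used, and the 4 inputs were not analysed here. Bowtie 0.12.7, hg19 and mm9 appear in the tools and builds listed per the submitters' processing notes, which give them no purpose. Positions were taken as hg19. For the peak caller, its settings and the inputs' use, details were not given in the sources used here. Column 6 of the deposited lists is a signal of unstated scale, called height, and column 7 a score made by the authors that is more negative for taller peaks. Deposited signal values were 0 on the chromosomes coded 22 to 24, here treated as missing. The deposited 4C table holds counts of reads per HindIII site, with 7491195 to 17076409 reads per library, and a viewpoint's chromosome was taken as that of the site with the most reads.

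Peaks overlapped when they shared 1 bp. Comparisons at like widths used 8 width classes, weighted to the region peaks. Regions named in the text were the 15 tallest, up to 15 with both marks in all phases, the 3 tallest of each single phase, the 3 widest and the tallest with H3K27me3; the text gives a part of them. Groups on chromosomes were chosen after their values were seen. The regions, lists and comparisons were chosen with earlier results of these data known. Genes near the regions, gene lists, sequence motifs and GC content were planned, but need a genome and annotation of hg19 that were not used here, and coordinates were not converted between builds. No p-value was computed. The overlap functions were tested on simulated data in Python 3.11.15 (pandas 2.3.3, numpy 2.4.6, scipy 1.17.1). Figures were drawn by matplotlib 3.10.9.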

Additional observations from a re-analysis of the deposited data

How the results depend on the processing

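No paired analysis was possible because each mark and phase had 1 library and no result comes from a test. No ratio of width or height, and no early G1 shortfall at like widths, changed sign under the alternatives tried. The order of the phases changed with equal list lengths. Some differences in how often H3K27ac was listed again did change sign at like widths. In G2/M they went from 15.8 to -4.01 percentage points for early G1 peaks and from 13.3 to -4.77 for late G1 peaks. In early G1 they went from 0.519 to -16.5 for late G1 peaks and from 1.03 to -12.6 for G2/M peaks. The number of regions, 2632 by the main rule, moved with the rule. It ran from 1924 without the late G1 lists to 3933 with H3K27ac of any phase under 13 alternatives. It fell to 1138 with the better-scored 50% of each list, where fewer peaks enter. With at least 50% of the H3K4me1 peak covered by H3K27ac, the share of distal H3K4me1 peaks was 25.6%, 25.7%, 12.2% and 16.1% in the phase order of the report, the width ratio moved to 2.33 in early G1 and 1.71 in S, and the height ratio to 1.34 in early G1, 1.27 in S and 1.26 in G2/M. With the better-scored 50% of each list the shares were 26.7%, 25.5%, 12.3% and 16.8%, the width ratios 1.5, 1.35, 1.27 and 1.21, and the height ratios 1.18 in early G1, 1.14 in late G1 and 1.12 in G2/M. With equal list lengths the shares were 16.3%, 19.5%, 20.5% and 20.1%. Within width classes the height ratios were 1.05, 1.02, 1.04 and 1.02, and with scores in place of heights the S ratio was 1.11. The causes were not tested. The shortfall of region H3K27ac peaks in early G1 at like widths, recomputed under 6 alternatives chosen after seeing the data, ran from -19.3 to -15.7 percentage points for late G1 peaks, -11.2 to -8.35 for S and -12.2 to -10.9 for G2/M. The removal of each phase's lists in turn was also added after seeing the data. Each phase rests on 1 library per mark, and the unknown read depth limits what the absence of a peak shows.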
